A study of Canis lupus familiaris with 8 samples.

Results

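The miRNA profile of healthy Doberman Pinscher serum was described from the 4 arrays whose dogs were labelled healthy, out of 8 arrays in the series. The other 4 arrays carried serum of dogs with dilated cardiomyopathy (DCM) and were not used here, so no comparison with disease was made. Each array measured the total RNA of the serum of 1 dog, and the arrays are named Con1 to Con4 by their labels. By the labels the dogs were adult and client-owned, with a stated age of 7 to 11 years, and the study's criteria asked for healthy dogs of at least 7 years. They were seen at a veterinary clinic as patients or for health checks. The healthy dogs had no sign of systemic or cardiac disease, a normal echocardiogram and few ventricular premature contractions in the Holter examination. Blood was left to clot before the serum was taken off, so that the profile is one of serum and not of plasma. The 4 dogs are 4 biological samples with 1 array each, and their number limits the precision of every value.

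MicroRNAs are short RNAs that lower the translation or stability of target messenger RNAs. In blood they are carried outside cells by Argonaute proteins, lipoproteins and vesicles, which protect them from degradation, and most of them come from blood cells and endothelium, with small amounts from solid organs such as liver and muscle. Some miRNAs are known almost entirely from 1 cell type, so a serum profile can be read as a list of possible sources, although fewer cells of a type and less RNA released per cell cannot be told apart in such samples.

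The array held 1224 miRNA names among the features analysed here, 289 listed as canine (cfa) and 935 listed as murine (mmu), each on 40 features per array. The 2 listings use different probes and were kept apart, except that the scaling described below used both. A name was called detected when at least 20 of its 40 features were well above background on at least 3 of the 4 arrays. In this way 116 of the 289 canine names were detected, which is 40.1%, and 180 of the 935 murine names, which is 19.3%. Of these 296 names, 273 were detected on all 4 arrays. Between 11551 (Con2) and 14000 (Con3) of the 48960 features per array were well above background, and none was saturated. The summed canine signal was 199886 intensity units in Con1, 107204 in Con2, 230429 in Con3 and 127543 in Con4, a 2.15-fold range, and the summed murine signal ranged from 75899 in Con4 to 186933 in Con3. Con1 and Con3 were the brighter arrays in both listings. Levels are therefore given as the share of the summed signal of a listing on its own array, or as scaled levels. The latter are log2 signals minus the 75th percentile of log2 signal over the 273 names of both listings detected on all 4 arrays. Signal also depends on how well a probe binds, so the order of names below is one of signal and not of copy number.

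One canine name held most of the signal. The level of cfa-miR-451, the erythroid miRNA that is processed by Argonaute 2 instead of Dicer, was 148533 in Con1, 83331 in Con2, 163182 in Con3 and 96842 in Con4. This was 74.3%, 77.7%, 70.8% and 75.9% of the canine signal of these arrays, with a mean of 74.7% ± 2.94 (SD, n = 4). The name ranked first in all 4 dogs, and its 2 probes each lit up on 20 of 20 features in every dog. Its share ran opposite to the total, with the lowest share on the brightest array, Con3, and the highest on the dimmest, Con2.

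The second canine name in all 4 dogs was cfa-miR-16, a widely expressed miRNA that restrains the cell cycle and is abundant in erythrocytes, at 5.77% ± 1.02 of the canine signal. Its signal was 12147 in Con1, 4581 in Con2, 15019 in Con3 and 7933 in Con4, so Con2 stood lowest. The order of the next names differed between dogs. The myeloid miRNA cfa-miR-223 held the third place in Con2 and Con3, cfa-miR-23a in Con1 and cfa-miR-191 in Con4. Their mean shares were 1.92% ± 0.428, 1.68% ± 0.292 and 1.67% ± 0.225, and their ranges over the 4 dogs overlapped. Below them came cfa-miR-25 at 1.32% ± 0.221, cfa-miR-142, a miRNA of haematopoietic cells, at 1.03% ± 0.192, and cfa-miR-92a at 0.901% ± 0.113.

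The next 7 canine names each held between 0.433% and 0.697% of the signal, and their order changed from dog to dog. They were cfa-miR-15b, cfa-miR-19a, cfa-miR-20a, cfa-miR-15a, cfa-miR-23b, cfa-miR-93 and cfa-let-7g. All 15 were detected on all 4 arrays, and 13 of the 15 brightest names of one dog were among the 15 brightest of every dog. Several of these names share a family with another. The miR-15/16 family, whose members share a seed and targets in the cell cycle, held 7.07% ± 1.35 of the canine signal with 4 of 5 names detected. The miR-23 family held 2.16% ± 0.363 with both names detected. Over all canine names 40.1% were detected.

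**Figure D1:**
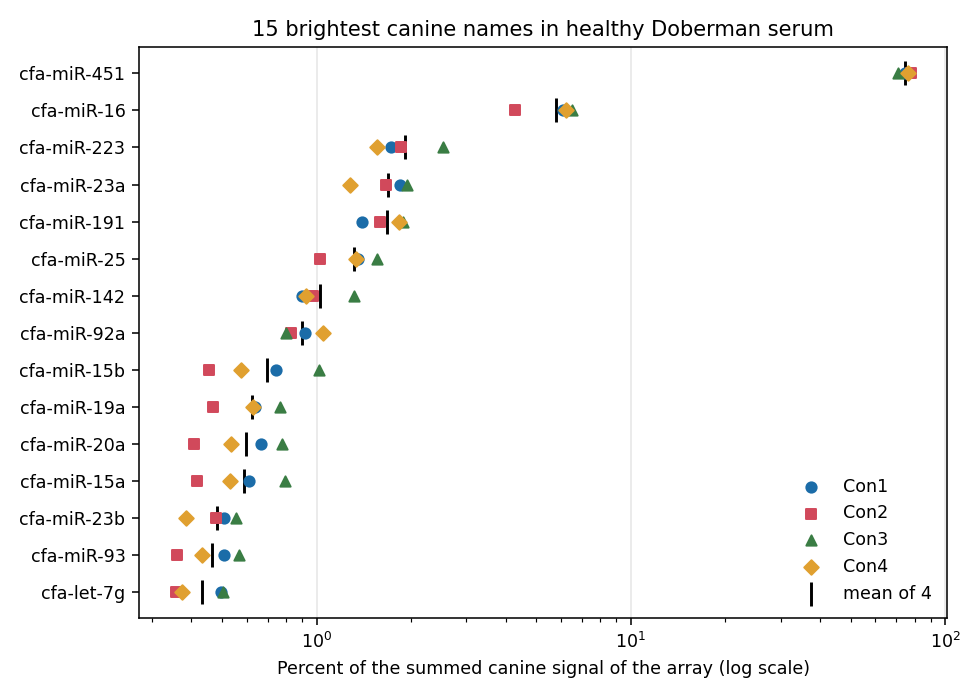
Share of the summed canine signal (percent, log scale) of the 15 brightest canine names in the 4 healthy dogs. Each symbol is 1 dog and the black line is the mean of 4; cfa-miR-451 lies between 70.8% and 77.7%, more than 10 times above cfa-miR-16 in every dog, while the names from cfa-miR-223 downwards overlap.

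The 10 brightest canine names together held 90.3% ± 0.979 of the signal. Between 8 and 12 names reached 90% of the signal in a dog, and between 59 and 64 names reached 99%. When cfa-miR-451 was left out of the sum, the 10 brightest of the remaining names held 63.95% ± 2.43 and cfa-miR-16 held 22.8%. Over the detected canine names, 1 had a mean signal of at least 10000, 11 lay between 1000 and 10000, 37 between 100 and 1000, 61 between 10 and 100, and 6 below 10. The 173 names that were not detected summed to 0.197% ± 0.0190 of the canine signal. The plot of signal against rank shows the steep fall after the first name and the long tail that follows it.

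**Figure D2:**
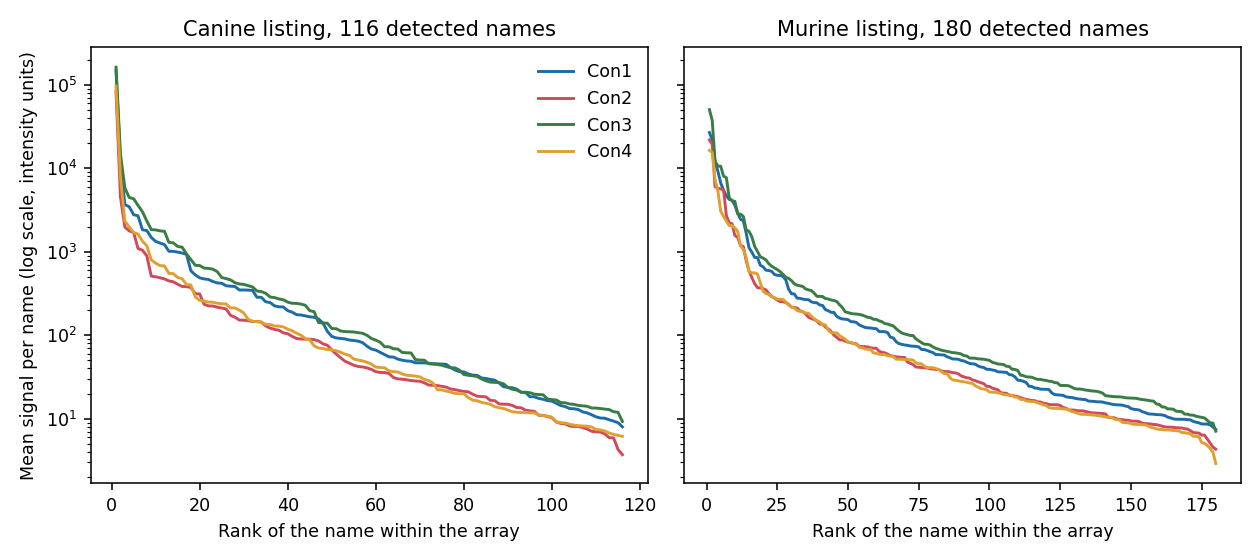
Mean signal per name (intensity units, log scale) against its rank within the array, for the 116 canine names (left) and 180 murine names (right) detected in healthy serum, with 1 line per dog. The canine curve drops by more than 10-fold after the first name, the murine curve falls more evenly, and the lines of Con1 and Con3 run above those of Con2 and Con4.

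The order of names was largely shared by the 4 dogs. Across the 116 detected canine names, the Spearman correlation of signal between 2 dogs lay between 0.938 and 0.966, and across the 180 murine names between 0.937 and 0.971. These are descriptions across names, which share arrays and depend on probe brightness, and not tests. Both lowest canine correlations involved Con2, with Con1 and with Con3.

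Erythrocyte miRNAs held the largest share among the cell sources examined in the canine listing. List shares below include every name of a list on the array, detected or not. Of 7 canine names in the erythrocyte list, 6 were detected (miR-451, miR-144, miR-16, miR-185, miR-92a and miR-25) and cfa-miR-363 was not. This is 85.7%, beside 40.1% of all canine names. The whole list held 82.8% of the canine signal in Con1, 84.0% in Con2, 79.9% in Con3 and 84.7% in Con4. The dogs thus differed little in this sum, which is mostly cfa-miR-451. Without cfa-miR-451 in the sum, the remaining erythrocyte names held 32.1% of the signal. In that sum the widely expressed cfa-miR-16 held 22.8%, cfa-miR-25 5.18% and cfa-miR-92a 3.61%. The last 2 are also in the list of the miR-17-92 cluster and its paralogues. The other defining erythrocyte name, cfa-miR-144, held 0.455%, so most of the 32.1% came from names that are not defining. The name cfa-miR-144, which is transcribed next to miR-451 and shares its primary transcript, read 286 in Con1, 79.0 in Con2, 333 in Con3 and 135 in Con4. Its share of the canine signal was 0.117%, and the log2 signal ratio of cfa-miR-451 to cfa-miR-144 ranged from 8.94 in Con3 to 10.04 in Con2. These 2 neighbours therefore did not keep a fixed signal ratio from dog to dog.

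In PCR assays, the ratio of miR-451 to miR-23a is used as a sign of haemolysis, since miR-451 leaks from lysed erythrocytes and miR-23a does not. The log2 signal ratio of cfa-miR-451 to cfa-miR-23a on the array was 5.33 in Con1, 5.55 in Con2, 5.19 in Con3 and 5.89 in Con4. It was highest in Con4 and lowest in Con3, with an SD of 0.305 over the dogs. A cutoff for PCR cycles has no counterpart in array signals, and the part of haemolysis in the erythrocyte share was not tested.

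Leukocyte miRNAs came second among the cell sources in the canine listing, in a list that does not include cfa-miR-142. In the murine listing, where miR-451 is not among the names analysed here and the leukocyte list includes both arms of miR-142, this list held 3.79% ± 0.558 and the erythrocyte list 3.38% ± 0.837. The latter does not include mmu-miR-3107, later renamed as a copy of the erythroid miR-486, which alone held 7.72% of the murine signal. Of 6 canine leukocyte names, 5 were detected (miR-223, miR-150, miR-146a, miR-342 and miR-155), which is 83.3% beside 40.1% of all canine names. The whole list held between 1.83% of the canine signal in Con4 and 2.71% in Con3. The myeloid cfa-miR-223 supplied most of it, with 3461 in Con1, 1984 in Con2, 5841 in Con3 and 1988 in Con4. The lymphocyte miRNA cfa-miR-150 did not follow it. It read 349 in Con1, 474 in Con2, 266 in Con3 and 238 in Con4, so that Con2 was highest on an array of low total signal, and its rank ran from 12 in Con2 to 39 in Con3. The murine listing holds both arms of miR-142, a haematopoietic miRNA. For mmu-miR-142-3p the signals were 156, 56.9, 175 and 46.6 from Con1 to Con4, and for mmu-miR-142-5p they were 111, 64.3, 183 and 60.7, with Con3, the brightest array, highest for both arms. As a share of the murine signal, the 3p arm was highest in Con1 (0.121% against 0.0935% in Con3) and the 5p arm in Con3 (0.0978%).

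Platelet and endothelial miRNAs were dim in the canine listing. Of 4 canine names, 3 were detected (miR-126, miR-130a and miR-222), which is 75% beside 40.1% of all canine names. The whole list held 0.0821% ± 0.0101 of the signal. This includes cfa-miR-221, which was not detected by the rule but held 0.0233%. The endothelial cfa-miR-126, which supports vessel integrity, read 50.2 in Con1, 22.7 in Con2, 44.7 in Con3 and 17.9 in Con4 and was well above background on 33, 20, 28 and 21 of its 40 features. Of its 2 probes only 1 was detected. The murine name mmu-miR-126-3p was brighter, at 461, 293, 452 and 218 in the same order, with 40 of 40 features in every dog. All 3 detected canine members had their highest scaled level in Con1, also with no scaling and under 4 other normalizations. Over all detected canine names Con1 was highest for 32 of 116, and for 23 to 39 under those settings. The murine names of this list did not share this order. Of the 2 detected, 1 had its highest scaled level in Con2 and 1 in Con3.

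The canine list of heart and skeletal muscle miRNAs differed between dogs, with the share of Con2 above the others. Of 8 canine names, 3 were detected (miR-133b, miR-133c and miR-499), which is 37.5% beside 40.1% of all canine names. The list held 0.0429% of the canine signal in Con1, 0.310% in Con2, 0.103% in Con3 and 0.0731% in Con4. The highest dog, Con2, was 7.23-fold above the lowest, and the mean of 0.132% was 0.0730% when Con2 was left out. The ratio was then 2.41, below the 5.40 of the pancreas list, and without Con1 it was 4.24. The signal of cfa-miR-133b, a striated muscle miRNA, was 23.5 in Con1, 212 in Con2, 113 in Con3 and 50.5 in Con4, and that of cfa-miR-133c was 7.99, 66.7, 32.7 and 14.0. Both put Con2 highest and Con1 lowest, also without scaling and under 4 other normalizations, and the log2 ratio of the 2 names stayed between 1.56 and 1.86. The sequences of miR-133 members are close to each other, and cross-hybridization between the 2 names was not tested.

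Of the other muscle names, cfa-miR-1 and cfa-miR-206 were at the edge of detection and also read highest in Con2. The defining name cfa-miR-1, the main miRNA of heart and skeletal muscle, read 3.61 in Con1, 17.2 in Con2, 11.1 in Con3 and 3.47 in Con4. It was well above background on 40 features in Con2 and 36 in Con3 but on 4 in Con1 and 3 in Con4, and therefore missed the rule. The skeletal muscle miRNA cfa-miR-206 read 3.78, 12.2, 6.81 and 3.33 from Con1 to Con4. By contrast cfa-miR-499, which lies in a myosin heavy chain gene of slow muscle and heart, read 46.8 in Con1, 18.3 in Con2, 72.9 in Con3 and 21.4 in Con4. It had its lowest value in Con2, where cfa-miR-133b, cfa-miR-133c, cfa-miR-1 and cfa-miR-206 had their highest. The heart miRNAs cfa-miR-208a and cfa-miR-208b and the defining cfa-miR-133a were not detected. For cfa-miR-208b 0 features were well above background in any dog, and for cfa-miR-133a only 9 features in Con2 were. Of 4 murine names of this list, only mmu-miR-208a-5p was detected (25%, beside 19.3% of all murine names), on all 4 arrays. What the murine probes of mmu-miR-208a-5p bound in dog RNA was not tested. The 4 murine names together held 0.0421% ± 0.0138 of the murine signal. Their share was highest in Con1, at 0.0558%, with 0.0522% in Con2, 0.0298% in Con3 and 0.0306% in Con4.

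Of 4 canine liver names, cfa-miR-122 and cfa-miR-192 were detected, beside 40.1% of all canine names. The hepatocyte miRNA cfa-miR-122 read 92.9 in Con1, 122 in Con2, 61.7 in Con3 and 145 in Con4, while cfa-miR-192, which is also made in intestine and kidney, read 393, 224, 633 and 401. Con4 had the highest level of cfa-miR-122 and Con3, the brightest array, the lowest. The log2 ratio of cfa-miR-122 to cfa-miR-192 ranged from -3.36 in Con3 to -0.88 in Con2. Among 4 canine pancreas names, cfa-miR-375, a miRNA of islet and other endocrine and epithelial cells, was detected at 29.0 in Con1, 34.8 in Con2, 19.4 in Con3 and 57.5 in Con4. It had the same order of dogs as cfa-miR-122. The acinar names cfa-miR-216a and cfa-miR-217 were not detected.

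Brain, epithelium, embryonic stem cell and smooth muscle lists were examined in the same way. Of 8 canine brain names, 3 were detected (miR-128, miR-219 and miR-383), which is 37.5% beside 40.1% of all canine names, but the defining names cfa-miR-9 and cfa-miR-124 had 0 features well above background in any dog. The list's signal was mostly cfa-miR-128, which many tissues express, at 225, 89.9, 339 and 129 from Con1 to Con4. None of 7 canine epithelium names was detected. Still, cfa-miR-205 was well above background on 40 features in Con1 and 25 in Con3, against 10 in Con2 and 13 in Con4. From Con1 to Con4, cfa-miR-203 had 40, 4, 30 and 12 such features, and cfa-miR-141 had 20, 3, 25 and 19. None of 5 canine names of the embryonic stem cell list, the miR-302/367 cluster, was detected, and they summed to 0.00151% of the canine signal. Of 16 murine names of this list, mmu-miR-290-5p and mmu-miR-292-5p were detected, which is 12.5% beside 19.3% of all murine names. The 16 names held 0.0406% ± 0.0143 of the murine signal. Of 3 names of smooth muscle and fibroblasts, cfa-miR-145 and cfa-miR-214 were detected and cfa-miR-143 was not. This list holds miR-199a and miR-199b and so does not include the canine name cfa-miR-199, which was detected at a mean signal of 21.2.

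**Figure D3:**
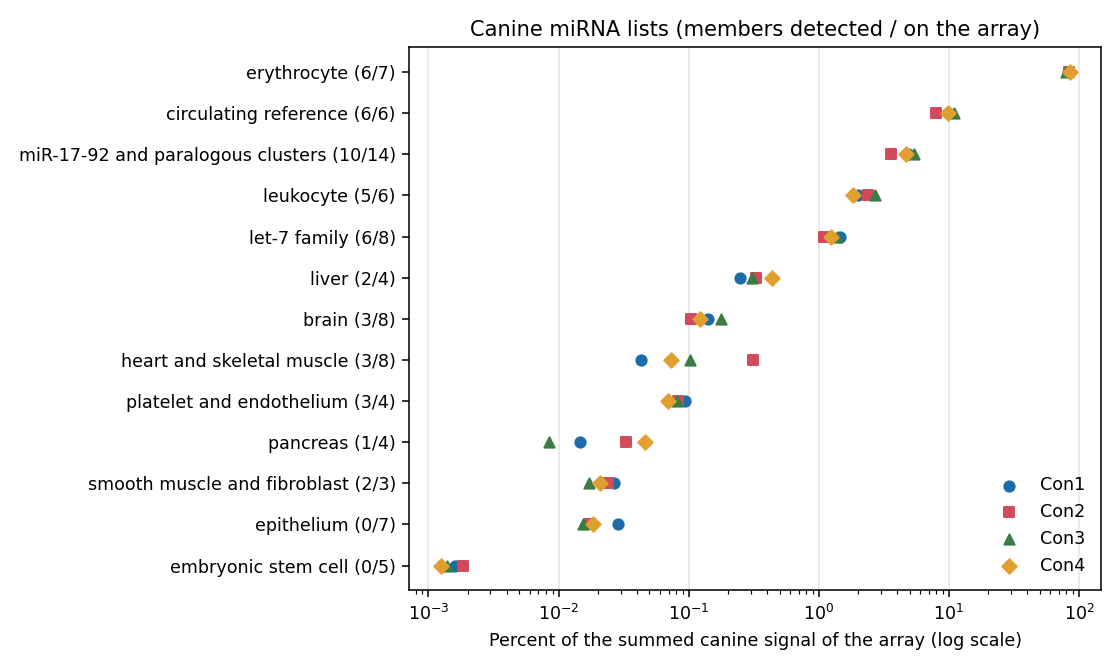
Share of the summed canine signal (percent, log scale) of 13 lists of canine miRNAs, with 1 symbol per dog and, in brackets, the members detected of those on the array. The erythrocyte list lies between 79.9% and 84.7%, and the heart and skeletal muscle list ranges from 0.0429% in Con1 to 0.310% in Con2; some names belong to more than 1 list.

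Families that act on growth were examined next. Of 14 canine names of the miR-17-92 cluster and its paralogues, which promote proliferation of blood cell precursors, 10 were detected (71.4%, beside 40.1% of all canine names), and all 14 together held 4.61% ± 0.731 of the canine signal. The missing members were cfa-miR-17, cfa-miR-18b, cfa-miR-92b and cfa-miR-363. Con2 had the lowest scaled level for 9 of the 10 members, and for 8 to 10 of them without scaling and under 4 other normalizations. Over all detected canine names, Con2 was lowest for 49 of 116, and for 49 to 74 under those settings. The let-7 family, which restrains growth and promotes differentiation, had 6 of 8 canine names detected, and all 8 held 1.29% ± 0.164 of the signal. Con2 was lowest for all 6, and under the vsn model for 5 of them. All 6 canine names of a list of common circulating reference miRNAs (miR-16, miR-93, miR-103, miR-191, miR-23a and miR-24) were detected, and their scaled levels had a median SD of 0.25 between dogs, against 0.29 over all 116 detected canine names.

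Neighbouring miRNA genes are often transcribed together. In the RefSeq gene table of the assembly UU_Cfam_GSD_1.0, a gene was found for 272 of the 289 canine names, and 128 names fell into 42 runs of neighbouring miRNA genes with no other gene between them. Of names in such runs 46 were detected (35.9%), and of names standing alone 61 of 144 (42.4%). Without the largest run, 44 of 101 names in runs were detected (43.6%). All names were detected in 11 runs and none in 15, and the other runs were split. The largest run, the imprinted MIR379 to MIR410 cluster known from brain and placenta, had 27 names on the array and only cfa-miR-134 and cfa-miR-494 were detected. Another run of 4 genes, with MIR127 and MIR136, had none. At the other end, the names of MIR106B, MIR93 and MIR25 were all detected, as were those of MIR99A-1, MIRLET7C and MIR125B-2, although cfa-miR-99a and cfa-miR-125b each have 2 genes that the array cannot tell apart. Of the 6 names of the MIR17 to MIR92A-1 run only cfa-miR-17 was missing. It was near the detection limit, with 20, 3, 20 and 10 features well above background from Con1 to Con4. The pair MIR143 and MIR145 was split, with cfa-miR-145 detected and cfa-miR-143 not, although both are known to derive from a common transcript. Both names were dim, with mean signals of 10.3 for cfa-miR-145 and 4.51 for cfa-miR-143. Only 1 of the 2 probes of cfa-miR-145 was detected, and cfa-miR-143 had 20, 4, 18 and 3 features well above background from Con1 to Con4.

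The murine listing gave a different picture. Its probes were designed for mouse sequences, and the study does not exclude that some of them fail to match canine miRNAs. On the array, 845 murine names have no canine name of the same kind. Of these 146 were detected, beside 180 of all 935 murine names. What the murine probes bound in dog RNA was not tested. The signal of this listing was spread over more names, and 8 of its 15 brightest names have numbers of 1000 or over, which were catalogued late. The brightest, mmu-miR-709, read 26877 in Con1, 21897 in Con2, 50574 in Con3 and 16421 in Con4, or 23.5% ± 2.84 of the murine signal. It was followed in all 4 dogs by mmu-miR-5109 with 22028, 19426, 37527 and 15520, or 19.8% ± 1.96. The dogs differed in the third place, which was held by mmu-miR-3107 in Con1 and Con4, mmu-miR-3963 in Con2 and mmu-miR-5100 in Con3.

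The name mmu-miR-3107 was later renamed as a copy of miR-486, an erythroid miRNA, and held 7.72% ± 2.07 of the murine signal. It was higher in Con1 and Con4, at 9.35% and 9.65%, than in Con2 and Con3, at 6.19% and 5.68%. Next came mmu-miR-5126 (6.16%), mmu-miR-5100 (5.29%) and mmu-miR-3963 (4.798%), then the myeloid mmu-miR-223 (3.62% ± 0.534) and mmu-miR-92a (3.03%). The neighbours mmu-miR-3960 and mmu-miR-2861, known from osteoblasts of the mouse, held 2.64% and 2.19%. They were followed by mmu-miR-19b (2.01%), the mirtron mmu-miR-1224 (1.61%), mmu-miR-23a (1.54%), mmu-miR-24 (1.07%) and mmu-miR-15b (0.738%). The 10 brightest murine names held 78.7% ± 2.15 of the signal, and 22 to 26 names reached 90% in a dog.

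**Figure D4:**
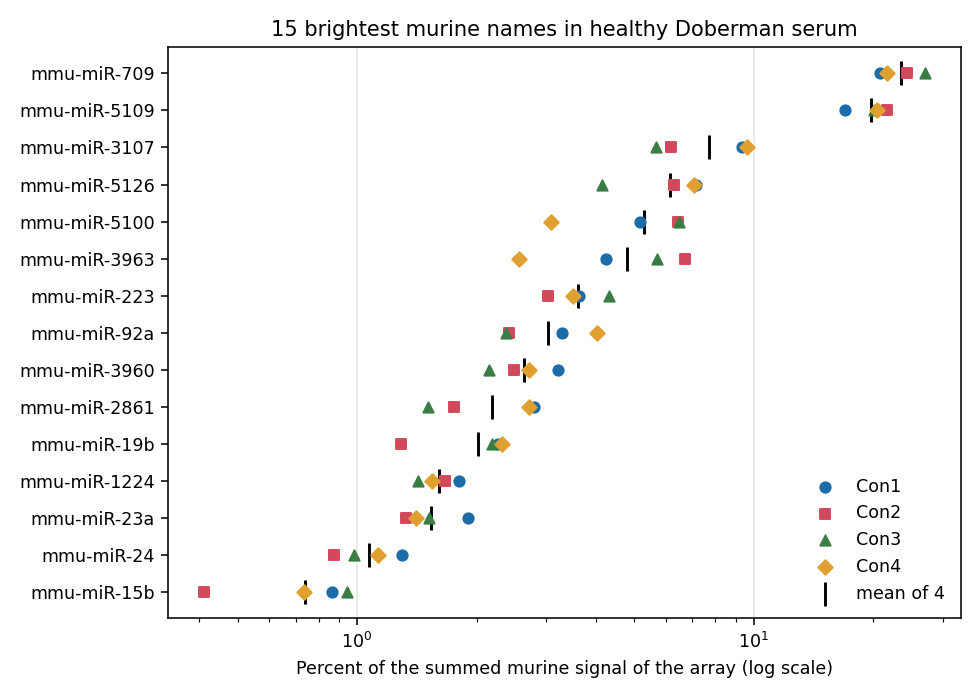
Share of the summed murine signal (percent, log scale) of the 15 brightest murine names in the 4 healthy dogs, with 1 symbol per dog and a black line at the mean. The names mmu-miR-709 and mmu-miR-5109 stand above the others in every dog, and mmu-miR-5100 and mmu-miR-3963 are lowest in Con4.

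Names of different age in the catalogue held unequal parts of the murine signal. The 623 names numbered under 1000, of which 110 were detected (17.7%), held 43.7% ± 2.85 of it, while the 300 names numbered 1000 and over, of which 67 were detected (22.3%), held 55.7% ± 2.89. Among the latter, the 41 names with the highest numbers, were detected most often, with 17 names (41.5%), and held 33.3% ± 2.30 of the signal. These shares moved by little between dogs. Star names, which mark the arm of the hairpin that was thought to be the minor product, were detected for 32 of 319 murine names (10.03%), against 148 of 616 names without a star (24.0%), and held 2.58% ± 0.466 of the murine signal. In 173 murine pairs of a name and its star, the name alone was detected in 37, the star alone in 9 and both in 8, and the star was the brighter in 1 of these 8.

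For 90 miRNAs, a name is listed for both species, on different probes. Both names of a pair were detected in 25 pairs, only the canine name in 3, only the murine name in 9, and neither in 53. Within the 25 pairs, the log2 signal difference between murine and canine name was at most 0.5 in size in 10 and over 1 in 12. The smallest differences were found for miR-378 (-0.14 ± 0.34, SD over dogs), miR-107 (-0.16 ± 0.041) and miR-497 (0.21 ± 0.10). The largest were found for miR-24 (6.96 ± 0.19), miR-20b (6.08 ± 0.30) and miR-23b (-4.35 ± 0.23).

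These differences were much alike in the 4 dogs, with a median SD of 0.10 over dogs and a median size of 0.82. For miR-24, the canine name read 11.7, 7.53, 14.4 and 6.76 from Con1 to Con4, near the limit of detection, and the murine name read 1679, 784, 1837 and 856. The canine name would place this miRNA among the dimmest detected, and the murine name among the 15 brightest. The scaled level of the canine name was highest in Con2 and that of the murine name lowest there, each with an SD of 0.12. An extreme case was miR-191, at a mean of 2789 as a canine name and 2.89, not detected, as a murine name. The rank of a miRNA thus depended on the listing, and the mature sequences behind the names were not used here.

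The spread between dogs depended on the normalization. The SD of the scaled log2 level over the 4 dogs had a median of 0.29 for the 116 canine names, with the middle 50% between 0.20 and 0.40, and of 0.33 for the 180 murine names, between 0.25 and 0.47. Without normalization the medians were 0.68 and 0.61, and with normexp and quantile normalization 0.14 and 0.12. At the 75th percentile scaling the SD exceeded 0.5 for 19 canine and 34 murine names, and 1 for 4 canine names and 1 murine name. The dim names were not clearly the more variable ones. The median SD was 0.32 for the 29 dimmest detected canine names and 0.26 for the 29 brightest, and 0.31 and 0.33 for the 45 dimmest and 45 brightest murine names.

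The canine names with the highest spread were 2 muscle names, the endocrine cfa-miR-375, the liver miRNA cfa-miR-122 and cfa-miR-125b. Other members of the same lists lay nearer the median, with an SD of 0.36 for cfa-miR-499 and 0.38 for cfa-miR-192. The SD was 1.64 for cfa-miR-133b, a 16.1-fold range of scaled levels between Con2 and Con1, and 1.60 for cfa-miR-133c, a 14.9-fold range. Without Con2, and with the scaling redone on the remaining arrays, the SDs were 1.09 and 0.94. For cfa-miR-375 the SD was 1.20 and for cfa-miR-122 it was 1.11, with a 6.56-fold and a 5.20-fold range, both highest in Con4 and lowest in Con3. These 2 names did not follow the total signal, and their SDs were 0.65 and 0.54 without any scaling, below the median of 0.68 over canine names at that setting. The fifth was cfa-miR-125b with an SD of 0.99, or 0.42 without Con3. There its signal was 16.9, with 21 features well above background, against 46.7, 35.9 and 20.9 in Con1, Con2 and Con4.

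Among murine names the star name mmu-miR-149* had the highest SD, 1.46. Its signal was 161 in Con1, 73.3 in Con2, 138 in Con3 and 560 in Con4, so a single dog set this value, and the SD was 0.31 without Con4. Among names detected on all 4 arrays, the next were mmu-miR-760-3p (0.89), mmu-miR-666-5p (0.78), mmu-miR-3963 (0.74) and mmu-miR-720 (0.74). Of these, mmu-miR-760-3p and mmu-miR-666-5p were highest in Con4 too, also without scaling and under 4 other normalizations, and mmu-miR-3963 was lowest there. Without Con4 the SDs of mmu-miR-760-3p and mmu-miR-3963 were 0.58 and 0.46. The name miR-720 is a fragment of a transfer RNA that was later removed from the catalogue, and its signal of 315, 372, 265 and 282 hardly followed the total, with an SD of 0.21 without scaling.

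Some names hardly differed between dogs relative to the array. Among canine names the SD was 0.044 for cfa-miR-532, 0.052 for cfa-miR-502, 0.084 for cfa-miR-22, 0.11 for cfa-miR-30d and 0.11 for cfa-miR-30b. The genes of miR-532 and miR-502 lie in the same run of 6 neighbours, and miR-30b and miR-30d are neighbours too. Other detected names of the first run varied more, with an SD of 0.44 for cfa-miR-188, 0.30 for cfa-miR-660 and 0.15 for cfa-miR-500. Among murine names it was 0.043 for mmu-miR-1904, 0.067 for mmu-miR-188-5p, 0.11 for mmu-miR-1897-5p, 0.11 for mmu-miR-3102* and 0.12 for mmu-miR-24. For cfa-miR-532 the signals were 33.3, 18.6, 45.6 and 20.1 from Con1 to Con4, which is the pattern of the array totals. Such low SDs from 4 dogs are uncertain. The values with a dog left out also use a scaling redone on the names detected on all remaining arrays. Leaving out a single dog changed the SD to 0.029 for cfa-miR-532 (without Con3), 0.082 for cfa-miR-502 (without Con4), 0.030 for cfa-miR-30d (without Con2), 0.026 for mmu-miR-1904 (without Con3), 0.0086 for mmu-miR-188-5p (without Con2), 0.045 for mmu-miR-1897-5p (without Con4), 0.063 for mmu-miR-3102* (without Con3) and 0.041 for mmu-miR-24 (without Con1).

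**Figure D5:**
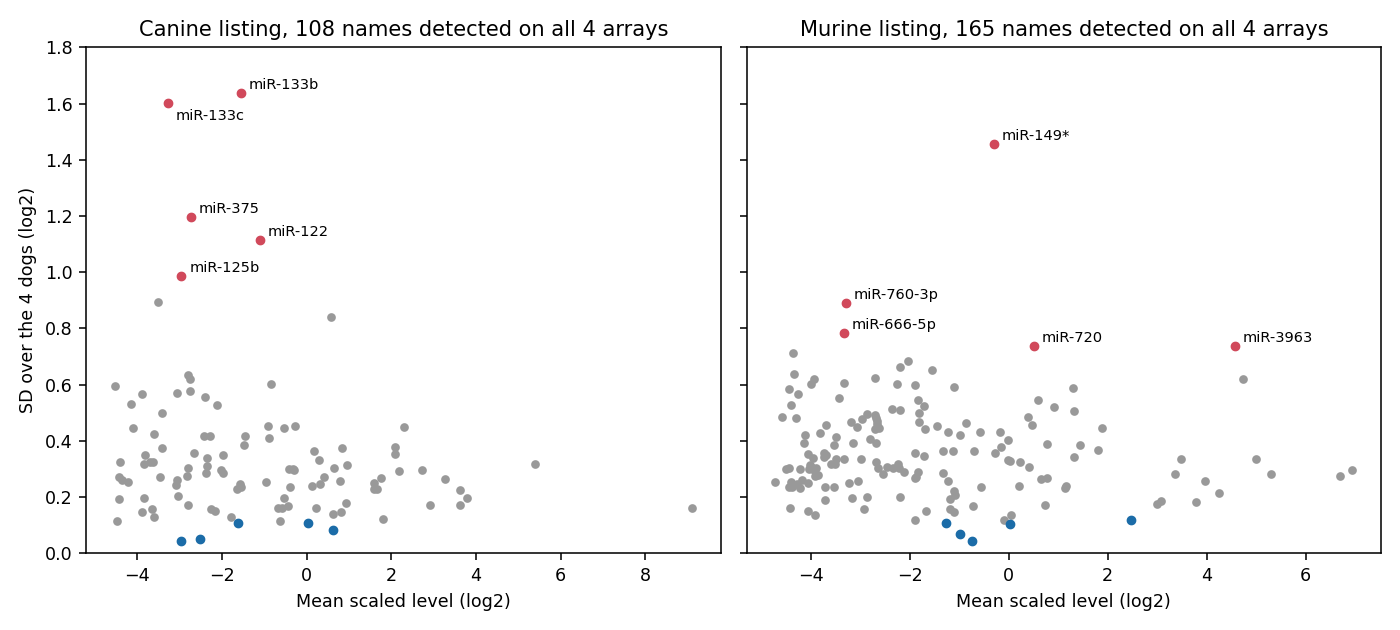
SD over the 4 dogs of the scaled log2 level against its mean (log2), for 108 canine (left) and 165 murine names (right) detected on all 4 arrays. Red points are the 5 names with the highest SD in each listing, blue points the 5 with the lowest; cfa-miR-133b and cfa-miR-133c reach 1.64 and 1.60 and mmu-miR-149* 1.46, while the median lies near 0.3.

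Within an array, features of 1 probe with a mean signal above 20 had a median coefficient of variation of 6.39%. Over all 40 features of a detected name it was 31.6% ± 1.08 (SD over the arrays). The 2 values cover unlike sets of features, and the part of probe brightness in their difference was not tested. Where all probes of a canine name were detected, the brightest exceeded the dimmest by a median of 0.89 on the log2 scale, and in the murine listing by 0.57. In 14 of the 116 detected canine names and 32 of the 180 detected murine names, at least 1 probe was not detected. An example is cfa-miR-125a, of which 20 of 40 features, those of 1 of its 2 probes, were well above background in every dog.

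Dim names of both listings lay at the limit of detection. Among the names just inside it, ordered by features well above background, were mmu-miR-5103, mmu-miR-1965 and mmu-miR-344g-5p. Each had 20 features on the array that was the third by this count, with mean signals of 7.36, 11.6 and 7.74. Among those just outside it were mmu-miR-144*, mmu-miR-3075 and mmu-miR-598*, each with 19 features, at 11.5, 13.3 and 7.01. Other names tied with them at 20 and at 19 features. The mean signals on the 2 sides overlap, so a name called not detected is not shown to be absent. The highest mean of a canine name called not detected was 40.2, for cfa-miR-221, with 27, 14, 27 and 16 features well above background from Con1 to Con4.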

How the data were processed

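Serum miRNA of 8 dogs was measured on one-colour arrays of 1 slide, and the 4 arrays labelled healthy were analysed here. The authors deposited the scanner output of Agilent Feature Extraction 10.7.3.1 (version per the submitters' processing notes), whose values are an intensity per feature with the background subtracted and no normalization between arrays, and a table of these same values, which differed in 0 features. Control features were left out. The mean intensity per name was taken over its 40 features without those marked as non-uniform or as population outliers, 3.65% to 3.97% of an array. A share is the percent of the summed mean signal of all names of a listing, with means below 0 set to 0. Scaled levels are log2 means (lower limit 1) minus the array's 75th percentile of the names of both listings detected on all 4 arrays. No test between groups was made, because a single group is described, and Dixon's criterion was used to look for single dogs that stood apart.

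The text names the 15 brightest names per listing, the defining members of fixed lists and the 5 names of highest and lowest SD per listing. It also gives 3 names on each side of the detection limit, where others tied, and the names with the 3 largest and smallest differences between listings. Outside this rule, cfa-miR-125a, cfa-miR-128, cfa-miR-192, cfa-miR-205, cfa-miR-188, cfa-miR-206, cfa-miR-221, cfa-miR-500, cfa-miR-660, mmu-miR-142-5p and mmu-miR-191 were given with values chosen after these were seen. The feature counts of cfa-miR-17, cfa-miR-141 and cfa-miR-203 and the mean signal of cfa-miR-199 were also chosen after they were seen. The members and lists were chosen with earlier results of these data known. Alternatives covered the detection rule, the averaging of features, the signal column, the denominator, the normalization (including an own implementation of the vsn model, and normexp with an offset of 50 in limma 3.58.1 on the median signal), and each dog left out in turn. With a dog left out, the scaling was redone on the names detected on all remaining arrays. The procedure was tested on simulated data. Python 3.11.15, numpy 2.4.6, pandas 2.3.3, matplotlib 3.10.9 and R 4.3.3 were used. The header of the files names a canine genome build other than that of the gene table, so gene positions served only for the order of neighbours. Depth does not apply to arrays, whose number limits the precision.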

Additional observations from a re-analysis of the deposited data

Results flagged for a closer look

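The share or scaled level of 88 groups of 4 arrays was searched for a dog far from the other 3, and 3 were found, while chance would give about 1 in 20, or 4.4. The scaled level of cfa-miR-223 was 4.09 in Con3 against 3.67 to 3.73 in the other dogs. The share of mmu-miR-19b was 1.29% of the murine signal in Con2 against 2.19% to 2.32%. The scaled level of mmu-miR-188-5p was -0.88 in Con2 against -1.019 to -1.002, a narrow range in all 4 dogs.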

How the results depend on the processing

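No paired analysis was possible because a single group was analysed. With a dog left out and detection then asked on 2 of the 3 remaining arrays, a changed rule, canine names detected ranged from 117 to 127 and murine from 181 to 194, the share of the top 10 from 89.97% to 90.7% (canine) and 77.8% to 79.4% (murine), the rank correlation from 0.945 to 0.964 and 0.949 to 0.967, the median SD between dogs from 0.22 to 0.31 and 0.30 to 0.35, and the listing difference from 0.70 to 1.06, while the erythrocyte list held 82.2% to 83.8% and the muscle list 0.0730% to 0.162%. The methods' filter, which asks for the same feature to be well above background on 2 of 4 arrays, gave 277 murine names, and any 1 feature of a name, not always the same, on each of 3 arrays gave 286. With both listings in the sum, the top 10 shares were 52.6% (canine) and 32.9% (murine). The lists then held 48.3% (erythrocyte), 1.29% (leukocyte), 0.0478% (platelet and endothelium), 0.194% (liver) and 0.0744% (muscle). Without the brightest name the top 10 shares were 63.95% and 74.9%, and the lists held 32.1%, 8.86%, 0.327%, 1.33% and, for muscle, 0.554%. With normexp the top 10 held 82.0% and 53.9%. The median over features gave correlations of 0.921 and 0.934, SDs of 0.38 and 0.40, and 0.0526% for the platelet and endothelial list. All names in place of the detected gave SDs of 0.58 and 0.59 and a murine correlation of 0.899. The median SD was 0.68 and 0.61 without normalization, 0.14 and 0.12 with normexp and quantile normalization, and in the canine listing 0.34 with median scaling and 0.35 with the 75th percentile of all names. Among values of single names and of the other lists, 148 moved by more than the spread and 636 did not. The cause of these shifts was not tested, except that shares follow their denominator. The denominator of detected names and the software's own summary per name were chosen after seeing the data.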
